A study of Mus musculus with 48 samples.

Results

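Mitosis genes encode the machinery with which a cell condenses its chromosomes, attaches them to a spindle, separates them and splits. A set of 43 such genes was followed in RNA-seq of mouse astrocytes, chosen by gene symbol from the 24421 symbols listed in each deposited table; all 43 were found in all 6 tables. They fall into 10 roles, from the proliferation marker Ki-67 to the proteins of cytokinesis. The series holds 48 bulk libraries in 15 groups from cortex, hippocampus and olfactory bulb, made with a low-input RNA-seq kit from dissociated tissue. The developmental libraries carry only tissue, cell type and age as labels: postnatal days 1, 7 and 14 (P1, P7, P14), with 3 libraries per group and 4 in cortex P14. The other libraries come from P28 animals labelled Gabbr1 control or Gabbr1 cKO (conditional knockout of a GABA-B receptor subunit), with 4 libraries per genotype in cortex, 3 per genotype in olfactory bulb, and 2 control and 4 cKO libraries in hippocampus. Tamoxifen is named as the treatment of both genotypes in hippocampus, olfactory bulb and 3 of the cortex libraries, while the other 5 cortex libraries name no treatment. The labels give no strain, no Cre driver and no list of alleles, and nothing says that replicates came from separate animals, so p-values measure only the spread between these samples, which may be technical.

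Cells enter mitosis when cyclin B and cyclin-dependent kinase 1 become active, and leave it when the anaphase-promoting complex marks cyclins and securin for destruction. Most of these genes are transcribed mainly in the later part of the cell cycle, so their transcripts serve as a sign of dividing cells in bulk tissue. Astrocytes of the rodent forebrain are known to multiply locally during the early postnatal period and to divide rarely in the adult.

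The values are normalized reads, that is, gene reads divided by 1 factor per library, scaled separately in each table. Total reads ranged from 1773226 to 15008466 per library in development and from 1859933 to 6352384 at P28, and the P14 libraries of hippocampus and olfactory bulb were shallow (1773226 to 4248087 reads). In every library the 4 blood genes were at 0 reads. The counting tool is not given, so blood content was not judged from these values. The summed level of 8 astrocyte markers rose from 21066 to 27828 at P1 to 492340 to 551190 at P14 in cortex. In hippocampus it was 13566 to 15603 at P1 and 425056 to 458891 at P14. In olfactory bulb it was 5026 to 7157 at P1 and 123156 to 140128 at P14. Markers of other cells were also present and are given below by region. Differences are of log2(value + 1), a scale on which changes of low genes come out too small, and genes were tested where their mean over a table was at least 10. A gene is called when its adjusted p in limma's test, over all genes tested, is under 0.05. In bulk RNA, fewer cells of a type and less RNA per cell cannot be told apart.

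The promoters of the genes are shown first because many of these genes moved together. RefSeq promoter sequences (GRCm38.p6) were matched for 37 of the 43 genes, in 39 windows of 300 bases that run from 250 before to 50 after the annotated start. Searched on both strands were the cell cycle homology region (CHR, TTTGAA, or TTCAAA on the other strand), the CCAAT box (CCAAT, or ATTGG) and an E2F site (TTTGGCGC or TTTCGCGC, or their complements); no motif contains another. The stretches below are the 150 bases before the start of 7 members, 5′ to 3′ on the gene's strand, with matches in capitals.
Mki67 (chr7:135716380-135716529, minus strand): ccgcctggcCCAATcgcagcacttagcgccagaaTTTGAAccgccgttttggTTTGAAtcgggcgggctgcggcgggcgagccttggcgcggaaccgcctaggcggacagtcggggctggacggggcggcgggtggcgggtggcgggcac
Top2a (chr11:99024190-99024339, minus strand): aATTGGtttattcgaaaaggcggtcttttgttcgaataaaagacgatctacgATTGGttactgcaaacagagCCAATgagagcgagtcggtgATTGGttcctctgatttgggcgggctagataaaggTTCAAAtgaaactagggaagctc
Cdk1 (chr10:69352913-69353062, minus strand): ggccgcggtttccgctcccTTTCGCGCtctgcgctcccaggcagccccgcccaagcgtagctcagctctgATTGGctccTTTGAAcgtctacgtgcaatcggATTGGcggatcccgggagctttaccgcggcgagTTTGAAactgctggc
Ccnb2 (chr9:70421555-70421704, minus strand): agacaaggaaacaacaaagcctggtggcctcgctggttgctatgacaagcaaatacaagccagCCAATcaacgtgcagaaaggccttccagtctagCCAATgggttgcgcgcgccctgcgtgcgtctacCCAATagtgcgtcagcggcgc
Cdc20 (chr4:118437344-118437493, minus strand): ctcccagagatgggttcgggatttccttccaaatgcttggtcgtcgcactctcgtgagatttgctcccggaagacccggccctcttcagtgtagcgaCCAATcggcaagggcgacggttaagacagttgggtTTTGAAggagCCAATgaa
Ncapg (chr5:45669775-45669924, plus strand): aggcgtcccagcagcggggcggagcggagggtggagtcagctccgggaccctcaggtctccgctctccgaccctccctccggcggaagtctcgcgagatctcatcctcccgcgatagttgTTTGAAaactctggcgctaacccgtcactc
Nuf2 (chr1:169531465-169531614, minus strand): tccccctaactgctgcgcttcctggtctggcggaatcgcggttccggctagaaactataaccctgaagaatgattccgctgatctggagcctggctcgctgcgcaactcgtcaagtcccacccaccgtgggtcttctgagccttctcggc

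A CHR lay in 30 of the 39 windows of members (76.9%), against 17.9% of all 32851 windows of the table. A CCAAT box lay in 29 windows (74.4%, against 37.4%), and both motifs in 26 (66.7%, against 6.95%). The E2F letters were found in 1 member window (2.56%, against 0.813%), that of Cdk1, shown above. No CHR was found for 9 members, and neither CHR nor CCAAT for 6: Mad2l1, Pttg1, Birc5, Nuf2, Ncaph and Nusap1. The Pttg1 window (chr11:43425932-43426231) lies within the gene as annotated in GENCODE M21 (chr11:43420250-43426251, minus strand). Bases before that annotated start were therefore not searched for Pttg1. The same holds for Kif4, Cdca8 and Kif2c, whose windows also lie within the genes as annotated there. The Mad2l1 window ends at chr6:66535270, before the annotated start at 66535390, so the bases at that start were not searched. Nuf2 is shown above as an example without a match, and Ccnb2 holds its CHR outside the stretch printed. A match is a description of letters and no evidence of binding.

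In cortex the mitosis genes stayed level from P1 to P7 and were low at P14. The summed level of the 43 genes was 3779 ± 656 normalized reads at P1, against 3613 ± 295 in P7 and 838 ± 203 in P14 libraries (SD, n = 3, 3 and 4), so that P14 stood at 22.2% of P1. Of the 40 members tested, 38 were lower at P14 than at P1, 1 was higher (Pttg1) and 1 was not called (Nuf2). Among all 11822 genes tested, 40.3% were lower and 24.0% higher. Every P14 library lay below every P1 library for 35 of the 40 (39.6% of genes). Cdc20, Espl1 and Birc5 did not pass the level filter. The median log2 difference over all 43 genes was -2.44, beside -0.27 over all genes tested.

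**Figure D1:**
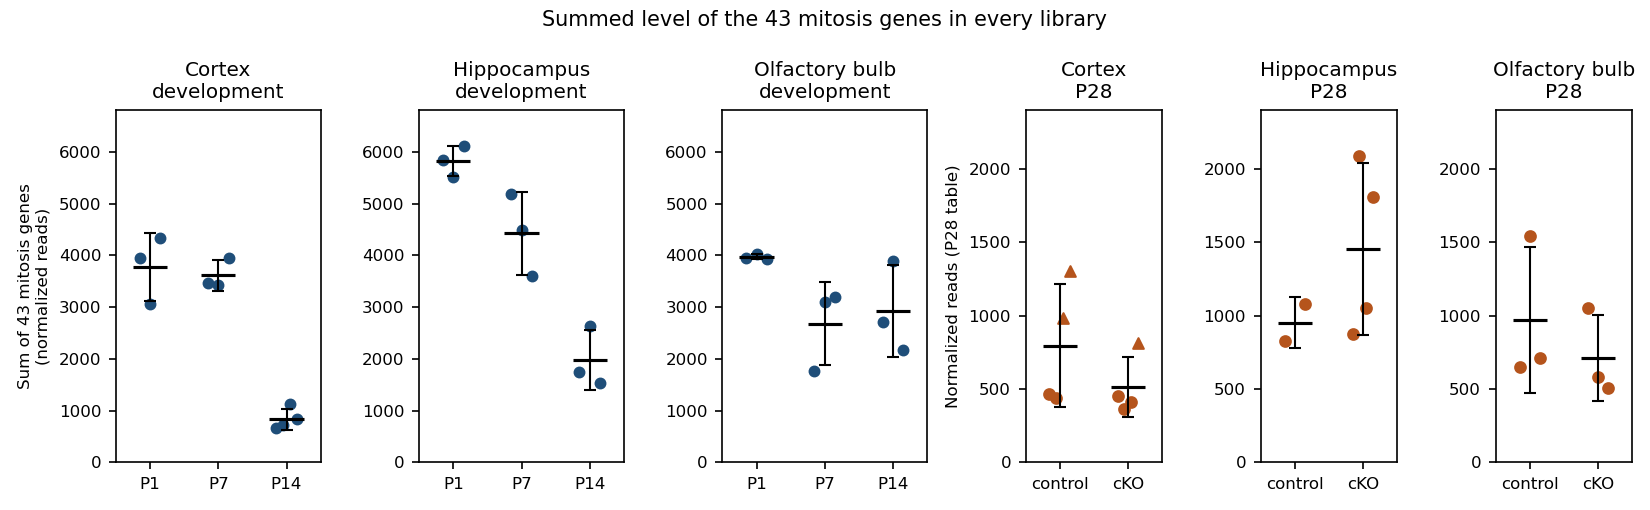
Summed level of the 43 mitosis genes in each library (points; y axis in normalized reads, separate scales for development and P28), with group mean and SD as bars. The 4 cortex P14 libraries (665 to 1121) lie below every cortex P1 and P7 library, while P14 olfactory bulb libraries (2171 to 3895) overlap P7; triangles mark the 3 P28 cortex libraries of the second label style (815 to 1303).

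Mki67 encodes Ki-67, which coats mitotic chromosomes. Its normalized reads in cortex were 663, 499 and 694 at P1, 545, 539 and 634 at P7, and 37.5, 49.1, 106 and 61.3 at P14. Every P14 library lay below every younger one, and P1 and P7 overlapped. Its P14 minus P1 difference was -3.36 (SE 0.26, limma adjusted p 1.11e-07), a mean level 9.74-fold lower.

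Top2a, the topoisomerase that untangles sister DNA, went from 578, 372 and 576 at P1 to 27.2, 47.8, 88.9 and 64.9 at P14 (log2 difference -3.22, SE 0.30). The cyclins and CDK1, which start mitosis, were lower in 4 of 4, from -2.09 for Ccnb2 to -4.14 for Ccnb1. Ccna2 (cyclin A2) was at 143.5, 88.4 and 133 normalized reads in the P1 libraries and 5.67, 1.89, 24.9 and 6.23 in those of P14. None of the P14 libraries reached the lowest P1 value. Cdk1 had at most 4.41 normalized reads in a P14 library, against 23.0 to 31.0 at P1.

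Both entry kinases were lower, Plk1 by -2.61 and Aurka by -1.85. Aurka, the centrosome kinase, was at 24.4, 17.4 and 20.8 at P1 and 3.78, 4.40, 5.99 and 6.23 at P14. The 4 checkpoint genes, which hold anaphase until every chromosome is attached, were lower by -1.53 (Mad2l1) to -3.08 (Bub1). Bub1 stood at 45.5, 28.5 and 38.5 at P1 and at 0.378, 4.40, 10.7 and 3.63 at P14, without overlap.

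Among genes of the anaphase-promoting complex and its substrates, Ube2c, its ubiquitin-conjugating enzyme, was lower (-2.48, SE 0.28). Cdc20, its activator, was too low to test: 15.1, 8.82 and 9.49 at P1, and 0.946 in 1 of the 4 P14 libraries with 0 in the other 3. Over the P14 group that is 3 reads, and the pooled P1 level was 34.1-fold higher (95% exact interval 11.4 to 168, counting error only). Espl1, encoding separase, had 6.25, 10.8 and 6.16 at P1 and 4.16, 10.1, 2.52 and 6.23 at P14, which overlap. Pttg1 is described separately below.

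In the chromosomal passenger complex, whose kinase Aurora B corrects faulty attachments, the 3 tested genes were lower, from -2.23 (Aurkb) to -3.01 (Cdca8). Incenp, its scaffold, went from 62.5, 71.3 and 77.7 to 9.08, 6.29, 19.2 and 27.5. Survivin (Birc5) was untested, with 10.6 to 15.1 at P1 and at most 3.63 at P14. Of 6 kinetochore and centromere genes, which link chromosomes to microtubules, 5 were lower, led by Cenpf (-3.32, SE 0.27). Cenpf reads were 301, 255 and 444 at P1 and 27.6, 18.9, 45.4 and 41.0 at P14.

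Nuf2, a subunit of the same NDC80 complex as Ndc80 and Spc25, stood apart from them. Its values were 36.1, 27.2 and 34.9 at P1, 53.1, 52.6 and 64.4 at P7, and 29.1, 14.5, 46.4 and 32.2 at P14. P14 overlapped P1 and lay below P7. The difference from P1 was -0.19 (95% interval -0.89 to 0.50, limma adjusted p 0.614), while Ndc80 was lower by -2.52 and Spc25 by -2.87. The sign of the Nuf2 difference turned positive with TMM, quantile normalization, edgeR and DESeq2, and without P14 replicate 2, at 0.02 to 0.33.

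The condensin genes, whose products compact chromosomes, were lower in 4 of 4, by -1.31 (Smc2) to -2.45 (Ncapg). Smc4 kept 33.9% of its P1 level: 340, 321 and 435 at P1 against 107, 123, 148.2 and 116 at P14. Spindle motors and assembly factors were lower in 6 of 6, by -1.64 (Kif2c) to -3.05 (Hmmr); Kif11, the motor that separates spindle poles, went from 126, 69.0 and 150 to 23.1, 27.7, 53.9 and 29.1. All 7 central spindle and cytokinesis genes were lower, from -0.75 (Anln) to -3.87 (Ect2). Prc1, which bundles the central spindle, went from 120, 101 and 117 to 7.94, 3.77, 16.4 and 15.6.

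**Figure D2:**
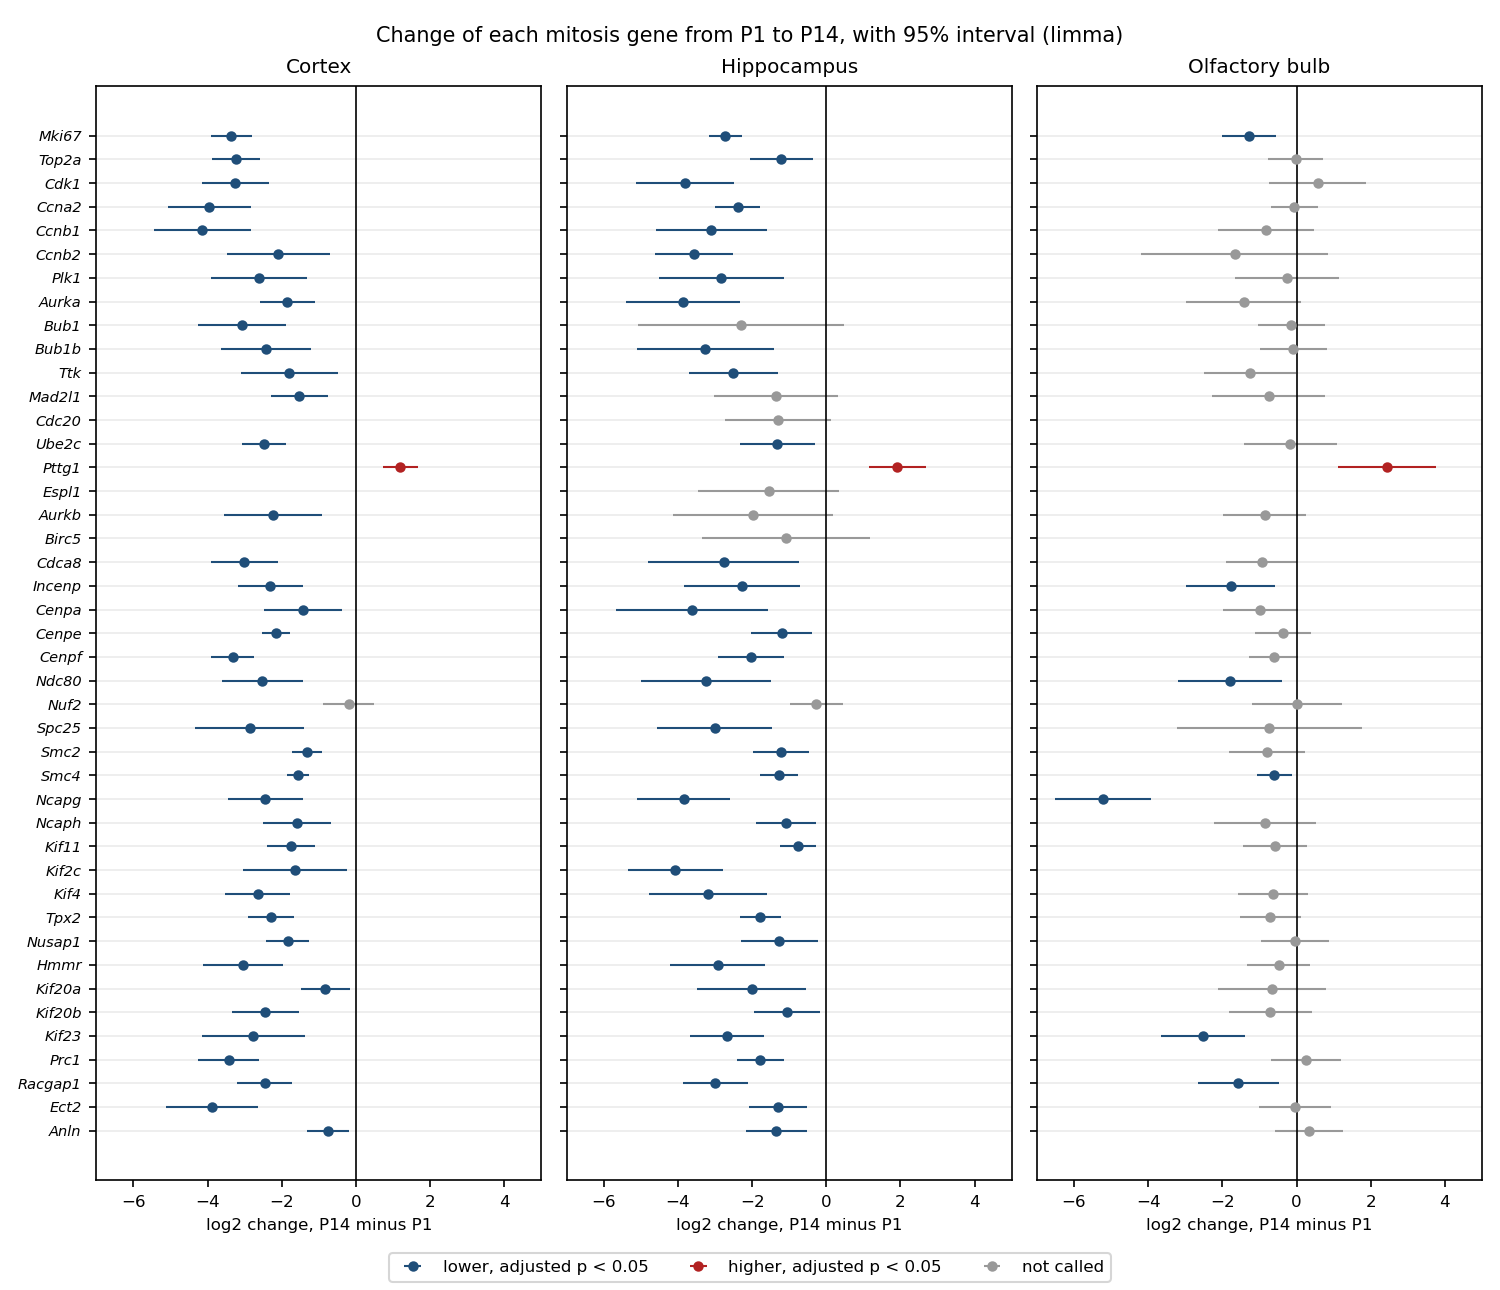
Log2 difference between P14 and P1 for each mitosis gene (x axis, with 95% limma interval), by region; blue is called lower, red called higher, grey not called, and untested genes have no point. Cortex and hippocampus points lie mostly left of 0, olfactory bulb points mostly cross it, and Pttg1 is to the right of 0 in each region.

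Nearly all of the cortical fall came after P7. Between P7 and P14, 39 of 40 tested members were lower (31.3% of all tested genes) and 1, Pttg1, was higher (18.6%), with a median over the 43 genes of -2.35 beside -0.19. From P1 to P7 limma called 0 of 40 members, against 33.7% of all tested genes. At an unadjusted p under 0.05 there was 1, Nuf2. DESeq2 on recovered reads called 1 higher, edgeR 0, and a fit of only those 2 ages called 2 lower and 1 higher. P7 lay below P1 in every library for 3 members (31.1%). The median difference was 0.02, beside -0.10 for all genes. The all-gene median from P1 to P14 depended on scaling, at -0.27 as deposited, -0.05 with TMM and 0.03 with quantile normalization. Members called lower then numbered 38, 35 and 30. Kif20a, which shares 29.3% of its exon bases with Cdc23 on the other strand, was lower by -0.82 (SE 0.31) but stood at 0.06 with quantile normalization and was not called with TMM, edgeR or DESeq2.

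Other cell type markers moved with age in the same libraries. In cortex the summed level of 8 neuron markers was 3431 to 4147 at P1, 746 to 3074 at P7 and 209 to 473 at P14. That of 8 neuronal progenitor and neuroblast markers was 7358 to 12025 at P1, 2098 to 2584 at P7 and 299 to 370 at P14. From P1 to P14, 6 of 6 tested progenitor and neuroblast genes were lower. Mature oligodendrocyte markers went from 334 to 381 up to 15195 to 26006, and microglia markers from 232 to 385 up to 970 to 2075. Oligodendrocyte precursor markers, from a cell type known to divide, were 1204 to 1292 at P1, 1638 to 2265 at P7 and 1048 to 1214 at P14. Of these markers, 4 of 6 were lower at P14 than at P7, beside 31.3% of all tested genes. The part of these cells in the mitosis gene result was not tested.

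In hippocampus the genes were again low at P14, with more spread between libraries. The summed level was 5821 ± 299 in P1, 4423 ± 802 in P7 and 1976 ± 584 in P14 libraries (mean and SD, n = 3 each), and P14 stood at 33.9% of P1. All 43 members were tested: 35 were lower (28.5% of 11578 genes), 1 was higher (21.0%), and 7 were not called. Every P14 library lay below every P1 library for 34 members (31.5%). The median over the 43 genes was -2.03, beside -0.29 over all genes. With TMM the all-gene median was -0.23 and with quantile normalization -0.03, and 33 and 27 members were then called lower.

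Mki67 was at 1353, 1488 and 1510 in the hippocampal P1 libraries, 1225, 1049 and 689 at P7, and 246, 241 and 176 at P14. These ages did not overlap, and the P14 minus P1 difference was -2.72 (SE 0.21, limma adjusted p 7.81e-07). Cdk1 fell from 24.9, 21.4 and 30.7 to 1.07, 2.21 and 0, which is 3 reads over the P14 group, and its pooled P1 level was 20.1-fold higher (95% exact interval 6.75 to 98.4). Kif2c, a microtubule-depolymerizing kinesin, had no read in any P14 library and 17.1, 19.6 and 11.7 at P1, at least 13.3-fold higher against a floor of 3 reads over the group.

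The cyclins and CDK1 were lower in 4 of 4, the entry kinases in 2 of 2, condensin in 4 of 4, motors and assembly factors in 6 of 6, and cytokinesis genes in 7 of 7. Aurka was at 28.5, 48.1 and 57.1 at P1 and 3.22, 0 and 5.37 at P14. Ccna2 was at 170, 172 and 157.3 at P1 and 25.8, 25.4 and 44.8 at P14. Both genes were far below P1 in every P14 library. Smc4 went from 567.7, 451 and 613 to 168, 321 and 204, and Prc1 from 134, 118.1 and 142.5 to 33.3, 28.7 and 55.5. Kif11 had the smallest called difference (-0.76, SE 0.22): its P14 values of 129, 140 and 124 lay close together and below 231, 213 and 224 at P1.

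The members not called in hippocampus were Nuf2, Bub1, Mad2l1, Cdc20, Espl1, Aurkb and Birc5. P14 replicates disagreed for several of them; the labels of replicates 1 and 2 end in "v2", which they do not explain. Bub1 stood at 64.1, 63.3 and 79.9 at P1 and at 21.5, 125 and 0 at P14, so a single P14 library lay above all of P1. Aurkb stood at 30.1, 0 and 10.7 at P14, overlapping the 24.6 to 32.6 of P1. Mad2l1 stood at 37.0, 14.3 and 34.4 at P1 and 2.15, 24.3 and 14.3 at P14, and Birc5 at 14.2, 15.1 and 17.2 against 18.3, 23.2 and 0. Bub1, Mad2l1 and Birc5 each had their highest P14 value in replicate 2. It was also high among P14 libraries for Cenpf, with 50.5, 222 and 84.2 at P14 and 360 to 428 at P1, and for Incenp, with 8.599, 47.4 and 3.58 against 48.6 to 78.6; both were called lower. Replicate 2 of P14 was high for Top2a too, with 673 against 188 and 186 in the others and 606 to 722 at P1; Top2a was nevertheless called (-1.21, SE 0.39, limma adjusted p 0.0226). Nuf2 was at 45.1, 34.2 and 30.5 at P14 and 38.1 to 49.2 at P1 (-0.27, 95% interval -0.99 to 0.45; quantile normalization gave 0.03).

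**Figure D3:**
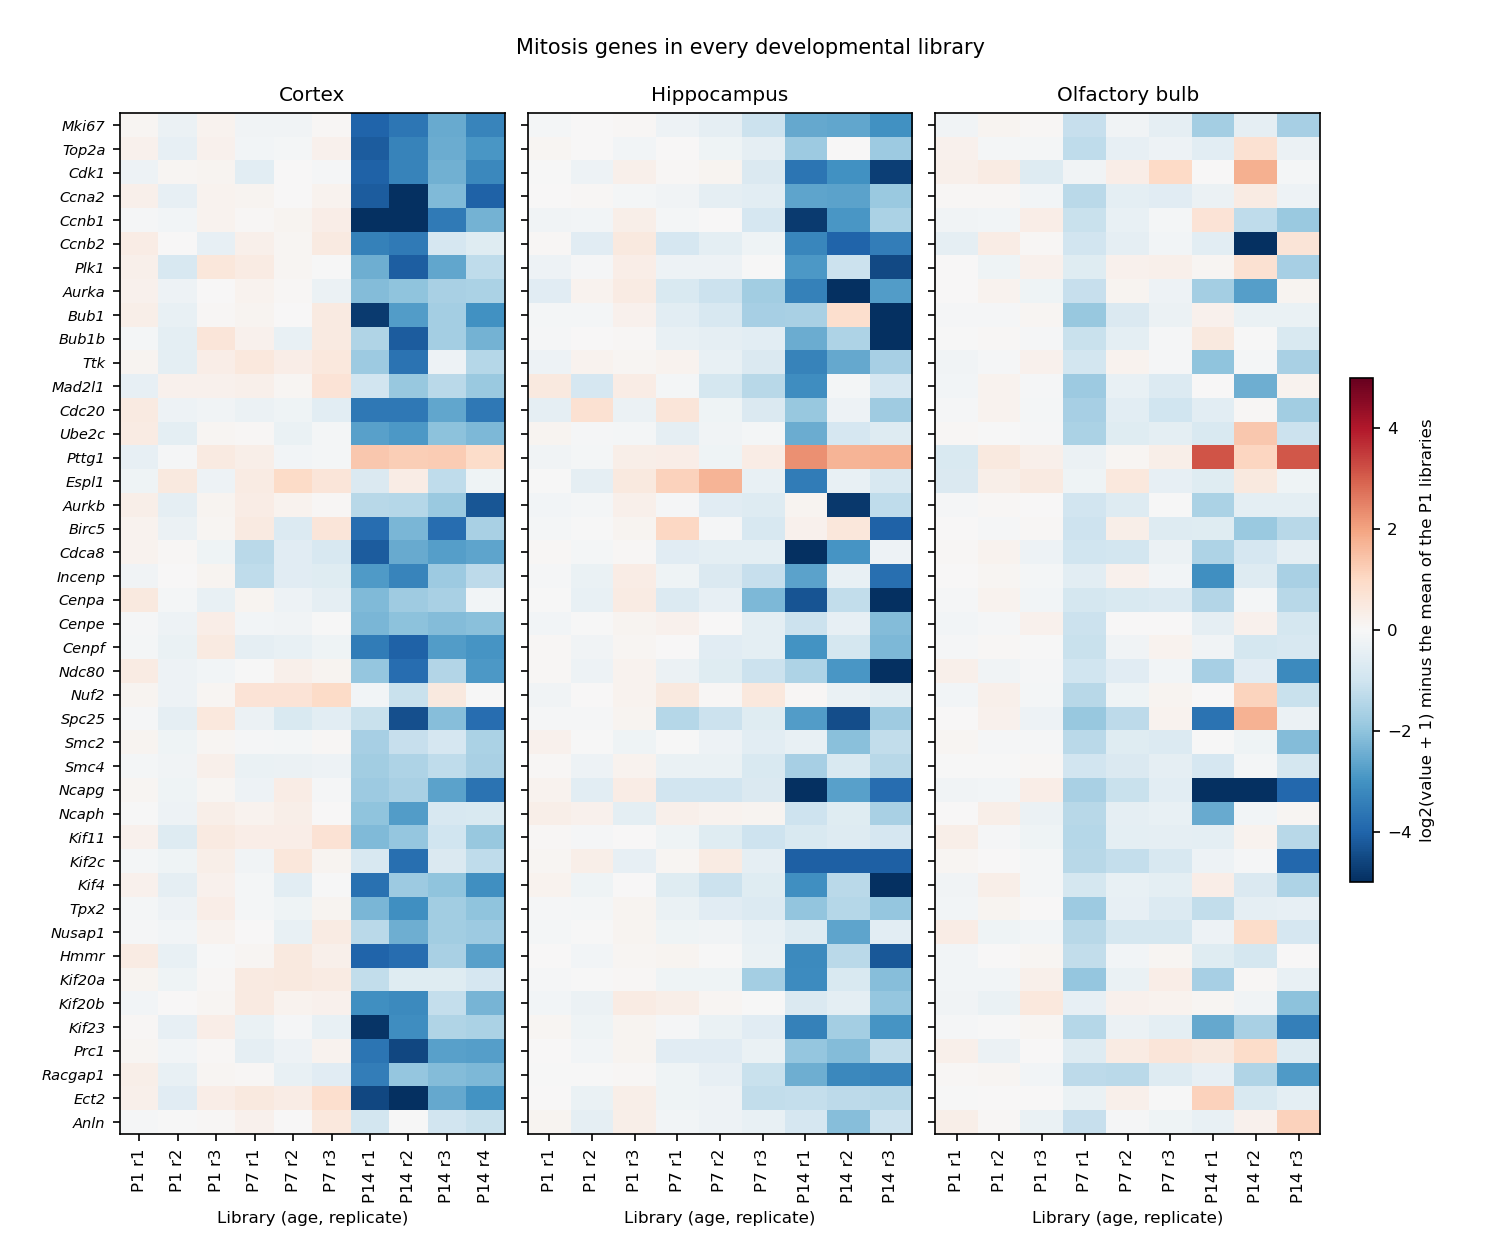
Level of each mitosis gene (rows) in each developmental library (columns, age and replicate), as log2(value + 1) minus the mean of the P1 libraries of that region, with colours saturating at the ends of the scale. The P14 columns are blue for most genes in cortex and hippocampus and mixed in olfactory bulb, with the Pttg1 row red at P14 in all 3 regions.

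Hippocampal P7 lay between the other ages. Against P7, 24 of 43 members were lower at P14 (17.7% of tested genes) and 1 was higher (12.5%). Leaving out P7 replicate 1 or 2 brought the 24 down to 13, and a fit of only the 2 ages to 15. Between P1 and P7 limma called 0 of 43 (18.1% of all genes), edgeR and DESeq2 0, with 2 lower at an unadjusted p under 0.05. Every P7 library lay below every P1 library for 18 members (25.5% of tested genes), and the fit of only those 2 ages called 10 lower. The median difference from P1 to P7 was -0.39, beside -0.03. Progenitor and neuroblast markers went from 15722 to 22498 at P1 to 699 to 1170 at P14 in the same libraries (7 of 8 genes lower), and ependymal and choroid plexus markers from 41.4 to 79.4 up to 3941 to 8015. Neuron markers went from 1681 to 1773 at P1 to 241 to 342 at P14, with 6 of 8 lower. Oligodendrocyte precursor markers were 363 to 564 at P1, 1171 to 1588 at P7 and 926 to 1035 at P14. Those of mature oligodendrocytes went from 72.3 to 91.3 at P1 up to 1603 to 2310 at P14. Microglia markers were 51.6 to 71.9 at P1, 185 to 908 at P7 and 188 to 475 at P14. Endothelial and mural markers were 153.6 to 224.7 at P1, 544 to 860 at P7 and 129 to 228 at P14. Of these, 5 of 6 were lower at P14 than at P7, beside 17.7% of all tested genes. The part of all these cells in the mitosis gene result was not tested.

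In olfactory bulb most mitosis genes did not pass the test between P1 and P14. The summed level was 3972 ± 46.7 in P1, 2680 ± 799 in P7 and 2923 ± 883 in P14 libraries (mean and SD, n = 3 each), and P14 stood at 73.6% of P1. Of 39 members tested, 7 were lower (31.4% of 11490 genes), 1 was higher (24.8%) and 31 were not called, so the share lower was below that of all genes. P14 lay below P1 in every library for 11 of the 39 (34.9%). The median over the 43 genes was -0.70, beside -0.24, and moved to -0.29 without P14 replicate 3. Whether the age difference in olfactory bulb differs from that in cortex or hippocampus was not tested, because the tables were scaled separately.

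Mki67 was called lower in olfactory bulb: 704, 894 and 827 at P1, 359, 705 and 593 at P7, and 244, 583 and 254 at P14. All P14 libraries lay below all of P1 and overlapped P7 (P14 minus P1 -1.28, SE 0.33, limma adjusted p 0.00641). The level of Top2a, by contrast, was 557, 440 and 439 at P1, 199, 360 and 394 at P7, and 328, 808 and 385 at P14. Its P14 range spans that of P1, with a difference of -0.03 (95% interval -0.76 to 0.71) that turned to 0.17 with edgeR. Ccna2 stood at 129, 129 and 111 at P1 and at 99.4, 161.3 and 101 at P14 (-0.06, 95% interval -0.69 to 0.57; 0.06 with edgeR).

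Ncapg, a regulatory subunit of condensin I, was the member with the largest fall in olfactory bulb. Its values were 50.2, 51.5 and 71.7 at P1, 17.8, 25.7 and 39.7 at P7, and 0, 0 and 2.78 at P14. That is 2 reads in the P14 group, and the pooled P1 level was 54.9-fold higher (95% exact interval 15.1 to 455; limma adjusted p 2.68e-05). The ages did not overlap. Its exons share 13.4% of their bases with Lcorl on the other strand, and whether counting used strand is not given in the sources used here.

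The other 5 genes called lower were Kif23 (-2.53, SE 0.51) and Racgap1 (-1.57, SE 0.49), partners in the centralspindlin complex, Ndc80 (-1.80, SE 0.64), Incenp (-1.78, SE 0.54) and Smc4 (-0.60, SE 0.22). Kif23 was at 37.6, 38.7 and 43.02 at P1 and 5.96, 12.4 and 2.78 at P14. Incenp was at 41.6, 43.6 and 38.1 at P1 and 3.98, 26.2 and 12.5 at P14, without overlap in either gene. Smc4 was not called with TMM, edgeR or DESeq2, nor Ndc80 with quantile normalization or edgeR. Leaving out single libraries gave 3 (P1 replicate 2), 4 (P1 replicate 1) or 11 (P14 replicate 2) members called lower.

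Cyclins, CDK1, the entry kinases and the checkpoint genes had 0 of 10 called in olfactory bulb, with 95% intervals that reach from -4.18 for Ccnb2 to 1.87 for Cdk1. Cdk1 stood at 14.3, 15.9 and 7.17 at P1 and 11.9, 42.7 and 11.1 at P14 (0.57). Without P14 replicate 2 that difference was -0.04. Bub1, Kif11, Prc1 and Nuf2 at P14 overlapped P1. Bub1 was at 44.1, 44.03 and 49.1 at P1 and 53.7, 35.8 and 36.1 at P14, and Kif11 at 148.8, 114 and 104 against 85.5, 135 and 45.8. Prc1 was at 80.3, 55.5 and 68.4 at P1 and 95.4, 128 and 43.04 at P14. Nuf2 stood at 37.3, 47.996 and 37.5 against 41.7, 88.2 and 18.0 (0.00, 95% interval -1.21 to 1.22), and its sign turned with a smaller pseudocount and when single libraries were left out. Cenpf was below P1 in every P14 library, with 217, 134 and 139 against 237, 251 and 243, but was not called (-0.61, limma adjusted p 0.103).

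Against P7, limma called 3 members lower at P14 (Incenp, Ncapg and Kif23; 26.6% of tested genes) and 1 higher (Pttg1; 20.4%). Ncapg and Pttg1 were called under every alternative run, whereas Incenp and Kif23 lost the call with quantile normalization, in the fit of only the 2 ages and without P7 replicate 2 or 3, and Incenp also with edgeR. Without P14 replicate 1 or 2 the members called lower numbered 5 and 6. From P1 to P7 it called 0 of 39 (10.6%), with 6 lower at an unadjusted p under 0.05, 1 lower in each of edgeR and DESeq2, and 10 lower in a fit of those 2 ages. P7 lay below P1 in every library for 17 members (22.6%). The median difference from P1 to P7 was -0.58, beside 0.01.

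Markers of other cells moved here too. Progenitor and neuroblast markers went from 25425 to 27110 at P1 to 2238 to 4052 at P14 in olfactory bulb, with 8 of 8 genes lower. Neuron markers went from 2841 to 3491 at P1 to 421 to 989 at P14, with 5 of 8 lower and 1 higher. Oligodendrocyte precursor markers were 131 to 168 at P1, 536 to 1109 at P7 and 1176 to 1227 at P14. Mature oligodendrocyte markers went from 98.7 to 186 up to 1919 to 2234, and microglia markers from 16.0 to 25.1 up to 189 to 325. Endothelial and mural markers went from 41.6 to 87.7 up to 286 to 1662. Their part in the mitosis gene values was not tested.

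Pttg1 went the other way in each region. It encodes securin, which holds separase inactive until anaphase, and lies on chromosome 11 (chr11:43420250-43426251, minus strand, GENCODE M21 on GRCm38), sharing no exon bases with another gene. In cortex it had 32.1, 41.1 and 58.8 normalized reads at P1, 51.9, 38.7 and 40.3 at P7, and 110, 101, 105.01 and 82.0 at P14. Every P14 library lay above all younger ones, with a difference from P1 of 1.196 (SE 0.22, limma adjusted p 0.000316). In hippocampus Pttg1 went from 23.1, 24.5 and 33.2 at P1 and 33.8, 22.5 and 35.0 at P7 to 134, 89.3 and 91.4 at P14 (1.92, SE 0.35, limma adjusted p 0.000817), again without overlap.

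In olfactory bulb Pttg1 stood at 4.66, 12.3 and 10.5 at P1, 6.76, 9.29 and 10.7 at P7, and 83.5, 19.3 and 80.5 at P14. Its lowest P14 library, replicate 2, still lay above every younger one (P14 minus P1 2.44, SE 0.60, limma adjusted p 0.00506). Across the alternative settings the P14 minus P1 difference ranged from 1.00 to 1.54 for cortex. It ranged from 1.68 to 2.10 for hippocampus and from 1.85 to 3.12 for olfactory bulb, and it was called in each. Espl1, which encodes the separase that securin inhibits, was not called in hippocampus and not tested in the other regions. Per kilobase of exon, Pttg1 ranked first of the 43 at P14 in cortex (49.8 ± 6.13 normalized reads per kb, SD, n = 4) and hippocampus (52.5 ± 12.7, SD, n = 3), and 5th in olfactory bulb (30.6 ± 18.1). At P1 the highest levels per kb were Smc4 in cortex (70.1 ± 11.8) and olfactory bulb (88.02 ± 2.34) and Mki67 in hippocampus (144.1 ± 8.45; SD, n = 3 each).

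**Figure D4:**
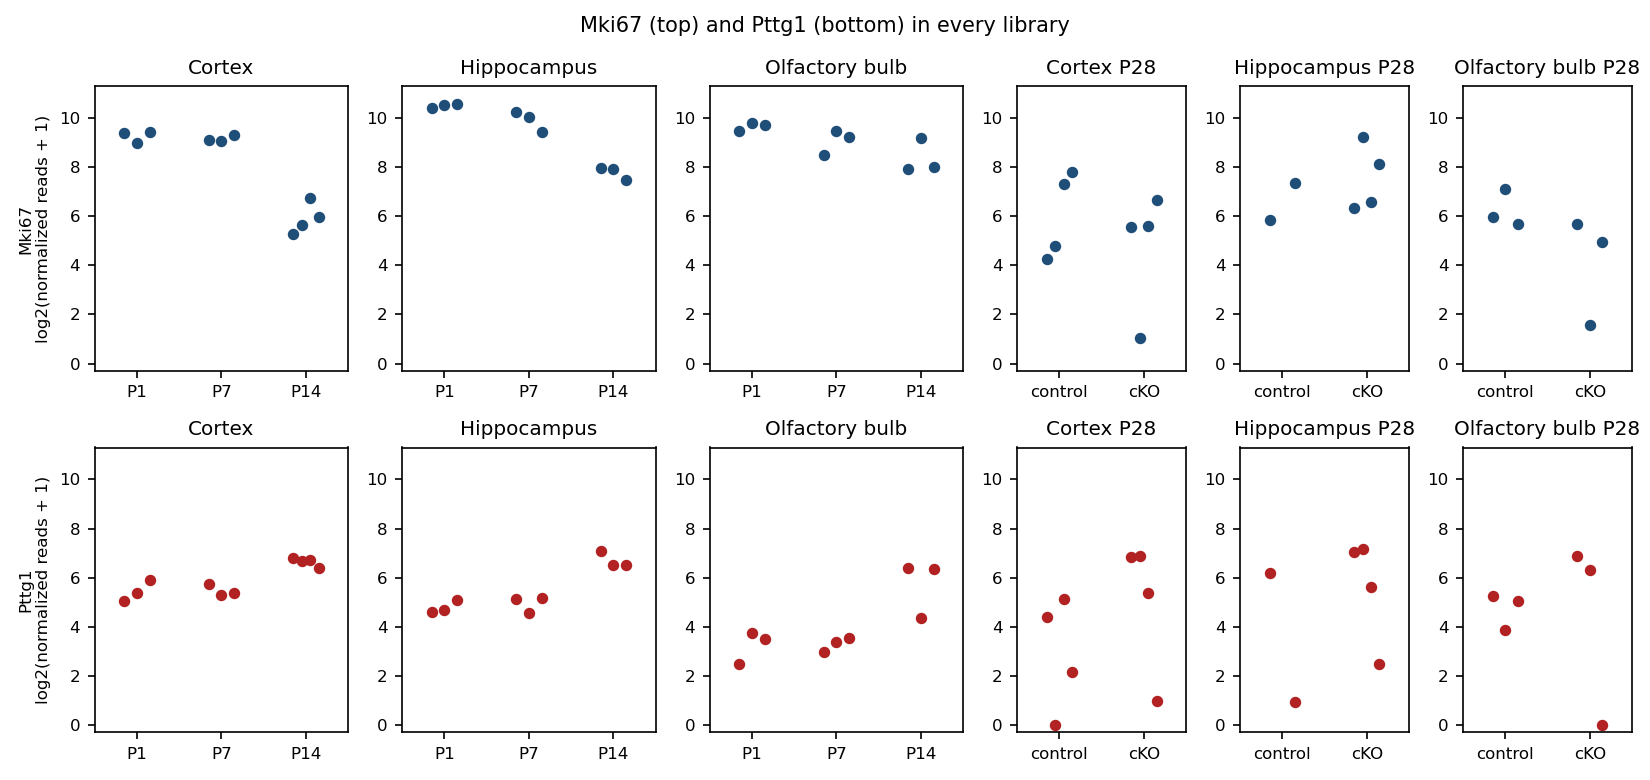
Level of Mki67 (top) and Pttg1 (bottom) in every library, as log2(normalized reads + 1) on the y axis, by age or by P28 genotype; each point is a library and each table has its own scaling. In each region every P14 library is lower than every P1 library for Mki67 and higher for Pttg1. At P28 the libraries of the genotypes overlap except for Mki67 in olfactory bulb, where the nearest libraries lie almost level.

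Other genes of the cell cycle were examined from lists. Among 65 further mitosis genes, P14 minus P1 gave 32 lower and 3 higher of 44 tested for cortex. Hippocampus had 27 lower and 2 higher of 56, and olfactory bulb 15 and 3 of 48. Of all genes tested, 40.3%, 28.5% and 31.4% were lower and 24.0%, 21.0% and 24.8% higher in the order of cortex, hippocampus and olfactory bulb, so the share lower in olfactory bulb was near that of all genes. The largest differences in cortex were Stmn1 (-3.98), Aspm (-3.66) and Pbk (-3.65). Those of hippocampus were Cdc25c (-4.30), Zwilch (-4.27) and Dlgap5 (-4.22), and those of olfactory bulb Stmn1 (-4.26), Ska2 (-3.22) and Tubb5 (-2.72). Stmn1 encodes a microtubule regulator and Tubb5 a tubulin, and young neurons also express both. The genes called higher were Cit (0.95), Ckap5 (0.66) and Spag5 (0.60) in cortex, Ckap5 (0.94) and Stag2 (0.59) in hippocampus, and Cit (2.72), Stag2 (0.73) and Ckap5 (0.62) in olfactory bulb.

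Of 8 G1 cyclins and kinases, which drive the step before DNA synthesis, cortex had 5 of 7 tested lower at P14, hippocampus 4 of 8 and olfactory bulb 4 of 6, beside 40.3%, 28.5% and 31.4% of all genes. Ccnd2, Cdk4 and Cdk6 were lower in all 3 regions, with Cdk6 at -2.88, -2.49 and -2.69. Ccne2 was lower in cortex (-1.31) and olfactory bulb (-1.40), Cdk2 in cortex and Ccne1 in hippocampus (-2.19). Ccnd3 was higher in hippocampus (2.24) and olfactory bulb (1.46), and Ccnd1 was not called in any region.

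Cell cycle brakes went in both directions, with 9 of 11 tested in each region. Rb1, the retinoblastoma gene, was higher by 1.34 (SE 0.08), 1.49 (SE 0.13) and 0.84 (SE 0.14) in the order of cortex, hippocampus and olfactory bulb. Its relative Rbl2 was higher by 0.56, 1.202 and 1.14, whereas Rbl1 was lower in cortex (-1.88) and olfactory bulb (-1.32). The CDK inhibitor Cdkn1a was higher in hippocampus (1.41) and olfactory bulb (0.95), Cdkn1b lower in hippocampus (-0.94) and olfactory bulb (-1.65), and Cdkn1c lower in cortex (-2.27) and hippocampus (-2.56). Fzr1, the late activator of the anaphase-promoting complex, was lower in cortex (-1.22). Cdkn2c and Cdkn2d were not called in any region.

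Among transcription factors linked to mitotic genes, 8 of 13 tested were lower and 2 higher in cortex. Hippocampus had 5 and 0 of 13, and olfactory bulb 5 and 1 of 12. The shares of all genes called lower were 40.3%, 28.5% and 31.4%, and the counts in hippocampus and olfactory bulb lie near them. Foxm1, an activator of these genes, was lower in cortex (-2.42) and hippocampus (-3.08). The repressors E2f7 and E2f8 were lower in cortex and hippocampus, and E2f7 also in olfactory bulb (-3.40). Nfyb, a subunit of the factor that binds CCAAT boxes, was lower in all 3 regions (-1.42, -1.65 and -0.87), and Nfya in cortex (-1.06) and olfactory bulb (-0.96). Lin52, part of the complex linked to the CHR, was higher in cortex (1.66) and olfactory bulb (1.25), where Lin9 of the same complex was lower (-1.16 and -1.06).

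At P28 the targeted gene was checked first. Gabbr1 stood at 927 to 1930 in cortex control and 89.8 to 211 in cortex cKO libraries, at 780 and 824 against 151.7 to 380 in hippocampus, and at 184 to 318 against 63.6 to 99.5 in olfactory bulb. Every cKO library lay below every control. The difference was -3.45 in cortex (SE 0.29, limma adjusted p 4.40e-05), -1.84 in hippocampus (SE 0.39, limma adjusted p 0.936) and -1.48 in olfactory bulb (SE 0.33, limma adjusted p 0.877).

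No mitosis gene was called between the genotypes. Limma called 0 of 15 members tested in cortex (0.00982% of all genes, which is Gabbr1). Hippocampus had 0 of 27 members called (0%) and olfactory bulb 0 of 20 (0%). At an unadjusted p under 0.05 there were 2 lower in cortex, 0 in hippocampus and 1 lower in olfactory bulb, and edgeR and DESeq2 on recovered reads also called 0 in each. Levels were low, and 28, 16 and 23 of the 43 genes did not pass the level filter. The median cKO minus control difference over the 43 genes was -0.66, 0.09 and -0.26 in the same order, beside -8.39e-05, -0.04 and 0.02 over all tested genes. Over left-out libraries it ranged from -1.05 (without cKO replicate 4) to -0.22 (without control replicate 4) in cortex. It changed sign to -0.05 without cKO replicate 4 in hippocampus (up to 0.34 without cKO replicate 1) and to 0.07 without control replicate 2 in olfactory bulb (down to -0.54 without cKO replicate 1).

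The summed level in cortex was 797 ± 420 in control and 512 ± 205 in cKO (SD, n = 4 each), in hippocampus 953 ± 174 (n = 2) and 1457 ± 585 (n = 4), and in olfactory bulb 969 ± 499 and 713 ± 294 (n = 3 each). Genotypes overlapped in all 3 regions. In hippocampus, cKO replicate 2 had the highest sum (2092), with 592 of Mki67 and 599 of Smc4; in olfactory bulb control replicate 2 had 1544, with 102.1 of Birc5 and 443 of Smc4. The ribosomal precursor Rn45s took 0.594% and 0.476% of the reads of these libraries and at least 28.6% in the others of the same tables. Of reads other than Rn45s, the 43 genes took 0.0491% in hippocampal cKO replicate 2 and more, 0.0627%, in cKO replicate 4. Hippocampal cKO replicate 2 had 376383 of astrocyte markers (others 124428 to 243408) and 10529 of ependymal and choroid plexus markers (others 49416 to 135484). Olfactory bulb control replicate 2 had 2783 of progenitor and neuroblast markers (others 427 to 1007). The part of Rn45s and of these markers in the result was not tested.

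Mki67 in cortex was at 18.0, 26.9, 157.8 and 225 in control and 45.998, 1.05, 47.2 and 99.8 in cKO, which overlap (-1.34, SE 1.02, limma adjusted p 1.00). In hippocampus it was at 56.3 and 163 in control and 80.4, 592, 93.4 and 278 in cKO (0.96, SE 0.78), and in olfactory bulb at 62.0, 138 and 50.1 against 49.9, 1.99 and 29.7 (-2.19, SE 0.93, limma adjusted p 0.877). The cKO libraries of olfactory bulb lay below all of its controls for Mki67, at 49.9 against 50.1 in the nearest pair. In those libraries 1 read is worth 0.860 and 0.946. Of the 43 members, 4 lay below and 2 above in this way in olfactory bulb, and the share of all genes is not given here. Single libraries moved each Mki67 difference: over left-out libraries it ranged from -1.98 to -0.11 in cortex (the latter without cKO replicate 2, at 1.05). The range was 0.21 (without control replicate 1) to 1.72 (without control replicate 2) in hippocampus, and -2.997 to -0.95 (without cKO replicate 2, at 1.99) in olfactory bulb.

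Smc2 of condensin had the smallest unadjusted p in cortex. Its values were 73.96, 84.1, 87.7 and 95.4 in control and 35.9, 29.4, 47.9 and 76.8 in cKO, so that 1 cKO library overlapped the controls (-0.92, SE 0.33, unadjusted limma p 0.0143). Top2a in cortex was at 10.6, 14.01, 113 and 152.8 in control and 1.12, 0, 7.19 and 47.01 in cKO (-2.96, SE 1.12). Anln, a cytokinesis scaffold, was among the higher members at this age, at 26.4, 35.0, 98.7 and 89.9 against 14.6, 28.3, 68.7 and 106, which overlap.

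In hippocampus Top2a stood at 81.3 and 91.6 in control and 98.8, 124, 105.4 and 213 in cKO, all above the controls (0.57, SE 0.40, limma adjusted p 0.936). Such a separation holds for 7.08% of all tested genes. Pttg1 varied widely within both genotypes at P28. It was at 20.1, 0, 33.98 and 3.46 in cortex control and 112, 116, 40.8 and 0.959 in cortex cKO (2.09, 95% interval -0.59 to 4.77). In olfactory bulb it was at 36.7, 13.6 and 32.2 in control and 117, 77.6 and 0 in cKO. The genotypes overlap in both regions. They overlap in hippocampus too, where Pttg1 values are listed by library number under the other observations.

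The P28 cortex libraries carry labels of 2 styles, and some mitosis genes differed between them. The 5 libraries whose labels name tissue and age had summed levels of 367 to 464, and the 3 whose labels name tamoxifen (control replicates 3 and 4, cKO replicate 4) had 815 to 1303. With genotype in the fit, a comparison added after the data were seen, 3 of 15 members were higher in the second style (3.87% of genes): Top2a (3.71, SE 0.73), Mki67 (2.85, SE 0.76) and Anln (1.67, SE 0.44), and 0 were lower (5.76%). As a plain difference of style means, without genotype in it, the median over the 43 genes was 1.71. The fit with genotype gave a median of 0.04 over all tested genes, which is not the same measure. Within the first style the genotype median over the 43 genes was -0.18, with 0 members called. Within the second it was -0.37, where cKO replicate 4 is the only cKO library, so calls there cannot be judged. Microglia markers stood at 85.2 to 138 in the first style and 479 to 1275 in the second, mature oligodendrocyte markers at 2730 to 5937 and 8377 to 14248, and astrocyte markers at 231509 to 300010 and 144711 to 204549. The labels do not say what the styles stand for, and the part of these markers was not tested.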

How the data were processed

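Bulk RNA-seq libraries of astrocytes from 3 mouse brain regions were analysed, 48 in 15 groups. The authors deposited 6 tables of normalized signal per gene, which are gene reads divided by 1 factor per library; the submitters' processing notes name STAR 2.5.0a, DESeq2 1.20.0, FastQC, MultiQC and mm10. The annotation, counting tool and strand setting are not given in the sources used here. The Trio RNA-seq kit for low RNA inputs was used, per the labels' protocols. Because each table was scaled separately, tests stay within a table.

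Whole reads were recovered from the value of 1 read in every library (100% of values whole within 0.01 reads); they give the library totals and the inputs of the count tests. Log2(value + 1) was tested with limma 3.58.1 (R 4.3.3) for genes with a table mean of at least 10, with Benjamini-Hochberg adjustment over all genes tested and a threshold of 0.05; developmental fits used all 3 ages of a region. The method was tested on simulated data. Alternatives were pseudocounts of 0.1 and 8, no filter, TMM and quantile normalization, edgeR 4.0.16 and DESeq2 1.42.0 on recovered reads, only the ages compared, leaving out each library, and label style as a covariate at P28 in cortex. Intervals on pooled reads are exact, at 95%, and cover counting error only.

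The members and lists were chosen with earlier results of these data known. All members may be named; values by library are given for Mki67, for the member of each role with the highest mean, and for members that go against their role. Of other mitosis genes the 3 largest called changes are named. Genes called higher among them, Kif2c, Espl1, Ndc80 and Spc25, and members low or flagged by overlap with other genes were added after their values were seen.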

Additional observations from a re-analysis of the deposited data

Results flagged for a closer look

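In groups of 4 libraries, 101 sets of 4 values were examined for single mitosis genes and their summed level. In 6 of them, 1 library lay far from the other 3. The rule used gives about 5% for normally distributed values, which normalized reads near 0 need not be. In cortex P14, Anln stood at 52.2 normalized reads in replicate 2 and at 23.9 to 27.2 in the others, and Cenpa at 16.1 in replicate 4 and 3.03 to 5.05 in the others. In cortex P28 cKO, replicate 4 had 18.2 of Ccna2, with 0 in the others, and 47.01 of Top2a, with 0 to 7.19 in the others. In cortex P28 control, Kif20b stood at 20.8 in replicate 3 and 9.51 to 10.5 in the others. In hippocampus P28 cKO, Smc2 stood at 137 in replicate 4 and 55.2 to 65.5 in the others.

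Some members moved in opposite directions between regions in every library, a difference that was not tested because the tables were scaled separately. From P1 to P7, Kif20a was above P1 in every cortex library (0.46) and below in every hippocampal one (-0.70), as were 25.5% of tested genes in hippocampus. Limma called neither difference. From P7 to P14, Ccna2 was below in cortex (-4.06) and hippocampus (-2.002) and above in olfactory bulb (0.74). Nusap1 did likewise over the same ages, with cortex at -1.87, hippocampus at -1.01 and olfactory bulb at 1.002. Neither Ccna2 nor Nusap1 was called in olfactory bulb over these ages, and Nusap1 was not called in hippocampus. Of the 43 members, 3 lay above and 3 below in every olfactory bulb library from P7 to P14. In cortex 5 lay above from P1 to P7. The shares of all tested genes that separate in these ways are not given here, so these rows are only a description.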

How the results depend on the processing

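Of 2430 values of single members under alternatives, 2170 kept direction and side of the threshold, 223 lost the call, 13 gained it and 24 changed sign; the causes were not tested. From P1 to P14, members called lower over all alternatives numbered 30 to 39 for cortex, 25 to 37 for hippocampus and 3 to 11 for olfactory bulb. The sign of Nuf2 in cortex turned to 0.019 with TMM, 0.33 with quantile normalization, 0.14 with edgeR and 0.16 with DESeq2, and ranged from -0.43 to 0.11 over left-out libraries. Quantile normalization turned Kif20a in cortex to 0.062 and Nuf2 in hippocampus to 0.028. In olfactory bulb, Nuf2 stood at -0.0039 with a pseudocount of 0.1 and at -0.55 to 0.57 over left-out libraries. Top2a there stood at 0.050 with TMM, 0.165 with edgeR, 0.165 with DESeq2 and -0.42 to 0.23 over left-out libraries. Ccna2 stood at 0.016 with TMM, 0.055 with edgeR and 0.059 with DESeq2, and at -0.29 to 0.059 over left-out libraries, and Cdk1 at -0.036 to 0.89.

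From P1 to P7, cortex had 1 member lower with a pseudocount of 8, 1 higher with quantile normalization and 1 with DESeq2, 2 lower and 1 higher in a fit of only those ages, and a median of 0.20 with quantile normalization. Hippocampus had 2 lower with quantile normalization, 10 in the fit of only those ages and 0 to 2 over left-out libraries. Olfactory bulb had 1 lower with edgeR, 1 with DESeq2, 10 in the fit of only those ages and 0 to 1 over left-out libraries.

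From P7 to P14, the cortical median was -1.48 with a pseudocount of 8 and -1.88 with quantile normalization. In hippocampus 15 were lower in the fit of only those ages and 13 to 31 over left-out libraries, and the median was -2.13 with a pseudocount of 0.1, -1.08 with 8 and -1.06 with quantile normalization. In olfactory bulb 2 were higher with a pseudocount of 8, 2 with TMM, 3 with quantile normalization, 3 with edgeR, 4 with DESeq2 and 1 to 4 over left-out libraries; 1 was lower in the fit of only those ages and 1 to 6 over left-out libraries.

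From P1 to P14, the median was -1.50 in cortex with a pseudocount of 8 and -1.79 with quantile normalization, and -1.47 and -1.61 in hippocampus. In olfactory bulb 3 to 11 were lower over left-out libraries, and the median ranged from -0.83 to -0.29. At P28 the count of members called was 0 under every alternative run that kept replicate libraries of both genotypes. No paired analysis was possible because the labels give no replicate numbers shared between groups. Low counts limit P28, where 28, 16 and 23 members were not tested.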

Other observations

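The P28 library labels carry numbers, and Pttg1 is listed here by them as values only, since the labels do not say whether adjoining numbers share an animal. Libraries YC142, YC143 and YC144 (cortex, hippocampus and olfactory bulb of control) had 20.1, 71.2 and 36.7 normalized reads of Pttg1. Libraries YC148, YC149 and YC150, also control, had 0, 0.890 and 13.6. Libraries YC151, YC152 and YC153 (cKO) had 116, 141.6 and 117, and YC154, YC155 and YC156 (cKO) had 40.8, 48.7 and 77.6. Libraries YC159, YC160 and YC161 (cKO) had 0.959, 4.62 and 0. The tables of the 3 regions were scaled separately, and no test was made.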
